A study of Homo sapiens with 2 samples.

Results

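Peaks of a CREB chromatin immunoprecipitation (ChIP-seq) lay at the starts of 6 genes of ubiquitin-dependent and cytosolic protein breakdown in cells of the human neuroblastoma line NGP. The genes are FBXW7 and FBXO34, which encode F-box proteins, CDC27, PSMD3, PSMB2 and TPP2. They were chosen by name from the authors' table of peaks within 50 kb of a transcription start site (TSS), which holds 2495 gene symbols, and for each gene the peak with its summit nearest to the TSS was kept. They were proposed because they carry such peaks, so their folds, fragment numbers and distances below are a description and are not tested. One library of CREB ChIP DNA and 1 of input DNA (not immunoprecipitated) were made from NGP cells grown in medium with 20% fetal bovine serum. The labels name no drug or construct, while the deposited peak names carry CAMKV beside CREB, so whether the cells carried a construct is not known here. Per the series' design text, the study sought genes downstream of CAMKV, a kinase-like protein of the calmodulin kinase family, through CREB. There was no replicate, all values come from 1 cell line, and binding to DNA says nothing here about the expression of these genes.

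CREB is a leucine zipper transcription factor that binds as a dimer to the cAMP response element (CRE), whose full form is the palindrome TGACGTCA and whose half-site is TGACG. Ubiquitin ligases mark proteins for breakdown: in the SCF ligases an F-box protein picks the substrate, and in the anaphase-promoting complex (APC/C) an activator protein does so, docked on scaffold subunits such as CDC27. The proteasome then cuts the marked protein into short peptides, and cytosolic peptidases such as tripeptidyl peptidase II, the product of TPP2, trim these further.

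The promoter sequences are shown first, because the letters of the windows were not read in choosing the genes. The choice was by CREB peaks, though, and promoter windows with a peak summit more often held a half-site (87.9%, beside 24.6% of all windows). CRE matches at the 6 genes are thus not independent of the choice. RefSeq windows of build GRCh38.p14, which run from 250 bases before to 50 after the gene start, were found for all 6 genes, and their start was the authors' TSS in each case. The windows are written 5′ to 3′ on the strand of the gene, with CRE half-sites on either strand in capitals (TGACG, or CGTCA for the opposite strand).
FBXW7, chr4:152536043-152536342, minus strand: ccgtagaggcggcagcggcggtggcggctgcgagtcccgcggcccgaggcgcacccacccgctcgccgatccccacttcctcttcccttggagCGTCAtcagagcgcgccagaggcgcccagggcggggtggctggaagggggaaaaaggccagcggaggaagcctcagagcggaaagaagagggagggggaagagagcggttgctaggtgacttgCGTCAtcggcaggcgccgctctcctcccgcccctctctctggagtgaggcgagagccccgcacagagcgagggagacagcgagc
FBXO34, chr14:55271171-55271470, plus strand: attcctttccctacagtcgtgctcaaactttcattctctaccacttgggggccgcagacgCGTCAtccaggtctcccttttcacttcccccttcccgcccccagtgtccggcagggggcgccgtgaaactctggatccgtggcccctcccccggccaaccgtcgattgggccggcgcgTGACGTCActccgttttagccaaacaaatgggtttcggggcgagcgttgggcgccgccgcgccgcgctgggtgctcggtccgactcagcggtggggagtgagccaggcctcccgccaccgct
PSMB2, chr1:35641477-35641776, minus strand: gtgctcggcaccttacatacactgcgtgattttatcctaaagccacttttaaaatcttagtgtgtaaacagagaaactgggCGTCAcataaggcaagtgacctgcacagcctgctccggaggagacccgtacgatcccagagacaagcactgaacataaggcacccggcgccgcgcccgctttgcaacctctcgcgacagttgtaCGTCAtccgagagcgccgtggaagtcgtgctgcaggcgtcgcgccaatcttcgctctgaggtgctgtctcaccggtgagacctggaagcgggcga

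The TPP2 window holds no half-site, and the capitals in it mark an E-box, CACGTG, the core recognised by MYC-family and other helix-loop-helix factors. Of the CDC27 window only the part inside the peak is shown, and it has no capitals because no half-site was found in it.
TPP2, chr13:102596736-102597035, plus strand: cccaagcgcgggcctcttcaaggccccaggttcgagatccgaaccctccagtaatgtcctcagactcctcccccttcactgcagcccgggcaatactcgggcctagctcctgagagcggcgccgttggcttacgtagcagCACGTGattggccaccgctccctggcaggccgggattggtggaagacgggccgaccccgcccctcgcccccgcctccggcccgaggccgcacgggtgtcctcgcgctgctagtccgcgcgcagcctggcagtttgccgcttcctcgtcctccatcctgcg
CDC27, chr17:47189246-47189386, minus strand: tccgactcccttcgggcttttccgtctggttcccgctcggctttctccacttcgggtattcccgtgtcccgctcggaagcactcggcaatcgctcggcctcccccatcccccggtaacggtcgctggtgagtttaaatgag

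All 6 genes had the summit within 1 kb of the TSS, the distance used here for a promoter peak. Over the genome 265 of 19970 protein-coding genes did (1.33%), but the genes were picked from that group and nothing is read from the difference. The distances ranged from 0 to 322 bp, and 4 of the 6 lay within 200 bp, as for 0.931% of protein-coding genes. Limits of 500 bp and 5 kb held all 6, with 1.2% and 1.96% of protein-coding genes. A −log10 q of at least 2 also held all 6 (1.21% of genes), while a −log10 q of at least 5 (0.531%) or a fold of at least 5 (0.871%) each held 4. The peak list was deposited with a fold enrichment and a p-value for each summit, from which the number of ChIP fragments at the summit and the number expected from the background were recovered (5285 of 5285 peaks gave a whole number). Folds and q-values are the authors' own, and the 95% intervals given for fragments are exact Poisson limits that cover counting error only, since reads without molecular identifiers are not independent molecules.

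FBXW7 is the F-box protein that directs the breakdown of cyclin E and of other growth regulators. It had the strongest peak of the 6, with 16 fragments (95% interval 9.15 to 26.0) against 0.246 expected. The fold enrichment was 13.6 and the −log10 q 20.3, which placed the peak at rank 7 of the 222 promoter peaks and rank 79 of all 5285. The peak covers chr4:152536073-152536395, and its summit lies 131 bp upstream of the FBXW7 TSS at position 152536092. RefSeq gives 3 further starts for FBXW7. One is 851 bp downstream, with the same summit as its nearest at 982 bp, and those 153563 and 183266 bp downstream had no summit closer than 153.7 kb and 183.4 kb. The peak was thus at the most upstream of the starts.

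The FBXW7 peak is shared. The summit lies 41 bp upstream of the start of MIR4453HG, a noncoding host gene read in the other direction, and 205 bp upstream of MIR4453, a microRNA gene, so that it is nearer to MIR4453HG than to FBXW7. The authors' table also pairs it with MIR3140, which starts 46807 bp away. The peak cannot be assigned to 1 of these genes.

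FBXO34, an F-box protein with less well known substrates, had the weakest peak of the 6. It had 5 fragments at the summit (1.62 to 11.7) against 0.287 expected, a fold of 4.66 and a −log10 q of 2.62. Among promoter peaks its rank was 184, and it was narrow, with 185 bp. The peak covers chr14:55271180-55271364, and the summit lies 235 bp upstream of the TSS and 6 bp from the left edge of the peak. In the authors' table FBXO34 is the single gene paired with it. RefSeq adds the antisense gene FBXO34-AS1, with a start 116 bp from the summit, and a further FBXO34 start 733 bp downstream of the authors' TSS. The FBXO34-AS1 start is thus nearer than that of FBXO34, and the peak cannot be assigned to either gene alone.

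CDC27, the APC/C scaffold subunit, had 10 fragments (4.80 to 18.4) against 0.465 expected, the highest background of the 6. Its fold was 7.51, its −log10 q 7.20 and its rank among promoter peaks 44. The peak covers chr17:47189096-47189386. Of the 6 summits it was the one past the start, 82 bp downstream of the TSS at 47189295. The table also pairs the peak with MYL4, a myosin light chain gene, at 19849 bp.

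PSMD3, a subunit of the lid of the 19S regulatory particle, and PSMB2, a beta subunit of the 20S core, are the proteasome genes among the 6. The PSMD3 summit had 9 fragments (4.12 to 17.1) against 0.376 expected, with a fold of 7.27, a −log10 q of 6.76 and rank 48 among promoter peaks. It lies 322 bp upstream of the TSS, the greatest distance of the 6, and the whole peak (chr17:39980339-39980575) ends before the TSS at 39980807. The other 5 genes that the table pairs with it, CSF3, GSDMA, LRRC3C, MIR6884 and SNORD124, start 17481 to 47160 bp away. The PSMB2 summit had 5 fragments (1.62 to 11.7) against 0.246 expected, with a fold of 4.82, a −log10 q of 2.87 and rank 148. Its summit falls on the TSS itself (distance 0 bp, position 35641526 of chromosome 1), at 9 bp from the left edge of a peak that reaches 35641844.

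PSMB2 was the one gene of the 6 with a further peak within 50 kb. That peak, at chr1:35668352-35668597, lies 27.0 kb upstream of the TSS and had 6 fragments (2.20 to 13.1) and a fold of 5.32. The 2 PSMB2 peaks differed by less than their counting error. No other peak lay within 100 kb of the kept peak at any of the other 5 genes. The fixed 1 Mb stretches of chromosome in which the 6 summits fall held 1 to 3 peaks each. Peaks just past the end of a stretch were not counted in it.

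TPP2, the giant peptidase that removes tripeptides from the ends of peptides, had 12 fragments (6.20 to 21.0) against 0.246 expected. Its fold of 10.4 and −log10 q of 13.3 gave rank 14 among promoter peaks and rank 186 among all. The peak is the widest of the 6, with 387 bp at chr13:102596813-102597199, and spans the TSS, with the summit 94 bp upstream. TPP2 is its single gene in the authors' table, while RefSeq also has LOC107984588, a long noncoding RNA gene on the other strand with its start 50 bp from the summit. The LOC107984588 start is thus nearer than that of TPP2, and the peak cannot be assigned to either gene alone.

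**Figure D1:**
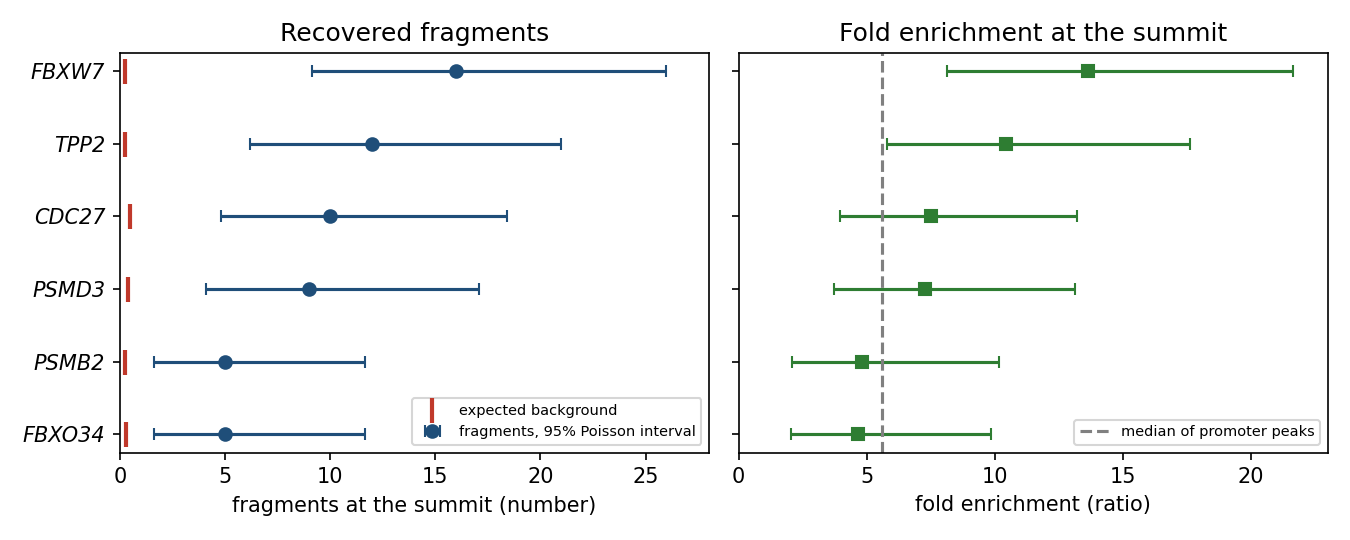
Fragments at the summit (left, number, with 95% Poisson intervals, red ticks for the expected background) and fold enrichment (right, ratio, with the interval that the fragment interval gives) for the 6 genes in order of fold. FBXW7, with 16 fragments, and TPP2, with 12, lie furthest to the right. The dashed line is the median fold of all promoter peaks, 5.61, and the intervals are no test against it.

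The order by fold was FBXW7, TPP2, CDC27, PSMD3, PSMB2 and FBXO34. Neighbours in this order had overlapping intervals, and so had FBXW7 and FBXO34 at its ends (fragments 9.15 to 26.0 and 1.62 to 11.7). The fold intervals that follow from the fragments, with the background held fixed, were 8.14 to 21.7 for FBXW7 and 5.78 to 17.6 for TPP2. The median fold of the 222 promoter peaks was 5.61 (quartiles 4.82 to 7.22), and the intervals of the other 4 genes included it. Since the genes were chosen for carrying called peaks, the intervals are a description and no test against that median. The folds of PSMB2 and FBXO34 were below it, and 32.9% of promoter peaks had, as they did, at most 5 fragments at the summit.

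**Figure D2:**
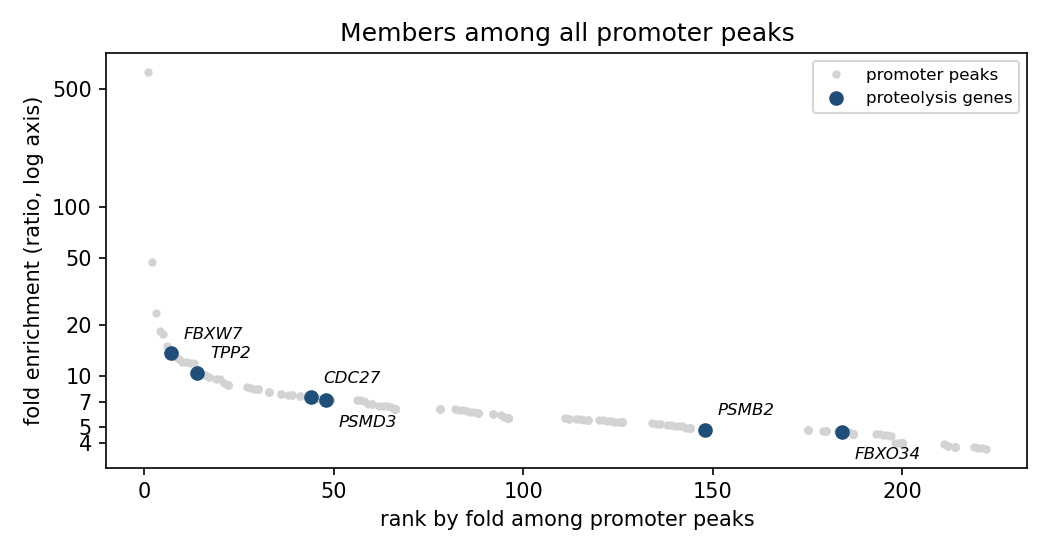
Fold enrichment (ratio, log axis) of the 222 promoter peaks against their rank by fold, with ties drawn at the same place and the 6 genes in blue. FBXW7 (rank 7) and TPP2 (rank 14) lie in the steep part of the curve, and PSMB2 (148) and FBXO34 (184) in its flat tail.

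FOS, a classical CREB-responsive gene, gives a measure of size in the same list. Its promoter peak had 8 fragments (3.45 to 15.8) and a fold of 6.69, so FBXW7, TPP2, CDC27 and PSMD3 had higher folds and PSMB2 and FBXO34 lower ones, all with fragment intervals that overlap that of FOS. The gene outside the 6 whose promoter peak was nearest in fold (by the difference of folds in this 1 library) was TSPAN31 for FBXW7 (fold 13.1) and EEF1AKMT3, among 2 tied genes, for TPP2 (10.3). These reached such folds with 43 and 40 fragments over a higher background, against 16 and 12. For CDC27 the nearest was C1D (7.57), for PSMD3 it was CCDC169 (7.22) among 10 tied genes, and for FBXO34 it was CHUK (4.66). PSMB2 was tied with 35 genes at a fold of 4.82, the value that 5 fragments give over the background of 0.246. That background was found at 31.4% of all peaks and 37.8% of promoter peaks, and FBXW7, TPP2 and PSMB2 had it. It was the commonest value and the lower quartile over all peaks, and so is not particular to these genes.

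CRE half-sites were found in the promoter windows of 4 of the 6 genes, FBXW7, FBXO34, PSMB2 and PSMD3. Of all 35116 RefSeq windows of this length 24.6% held a half-site on either strand, and of the 190 windows that held the summit of any peak 87.9% did. The full palindrome TGACGTCA was found in FBXO34 alone of the 6, against 1.85% of all windows and 37.9% of windows with a summit. The longer half-site TGACGT, which the full site contains, was found in FBXO34 and PSMB2, against 7.98% and 68.4%. Of the 22155 windows of protein-coding genes, 27.9% held a half-site, 2.26% the full site and 8.92% the longer half-site. The windows of CDC27 and PSMD3 do not hold the summit, so the shares over windows with a summit are no like measure for them. Of the windows that do, those of FBXW7, FBXO34 and PSMB2 had a half-site and that of TPP2 had none. The 190 windows include alternative and divergent starts that share a peak. A match describes the letters in the window and does not show that CREB bound there.

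**Figure D3:**
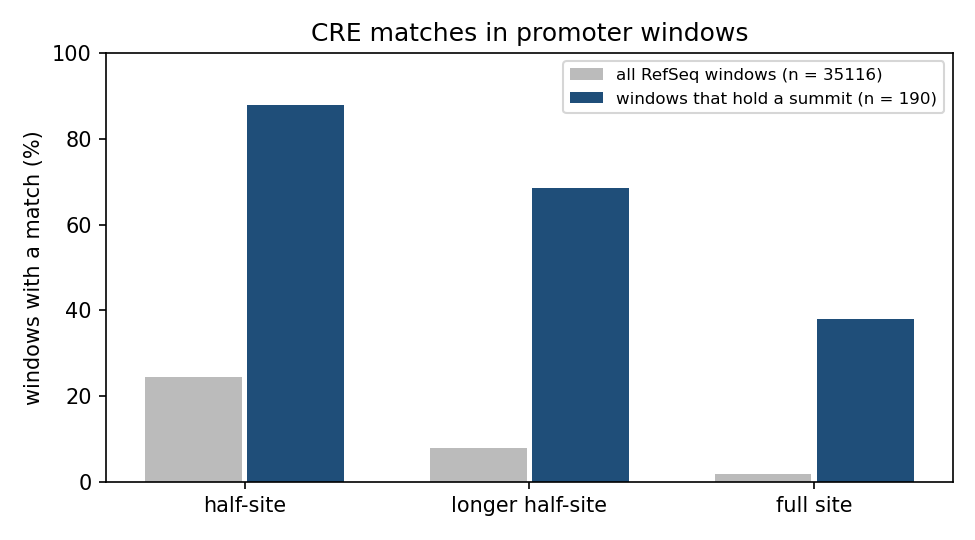
Share of promoter windows (%) with a CRE half-site, a longer half-site or the full site, for all RefSeq windows (grey, 35116) and for windows that hold a peak summit (blue, 190). In each pair the blue bar is higher, from 87.9% against 24.6% for the half-site to 37.9% against 1.85% for the full site.

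The place of the matches differed among the genes. In FBXW7 the 2 half-sites begin 157 and 34 bp before the TSS, both inside the peak and 22 and 97 bp from its summit. In PSMB2 they begin 169 and 45 bp before the TSS, at 165 and 41 bp from the summit, again inside the peak. The full site of FBXO34 is at chr14:55271349-55271356, 72 bp before the TSS, within the peak but 163 bp from its summit. A separate half-site of FBXO34, printed above in the first capitals of its window, lies 45 bp from the summit. The half-site nearest to a summit was at a median of 32 bp (quartiles 12 to 54) in the windows that held both. The nearest sites found for FBXW7 (22 bp), PSMB2 (41 bp) and FBXO34 (45 bp) lay between those quartiles. The summits of PSMB2 and FBXO34 rest on 5 fragments each and lie 9 and 6 bp from the left edge of the peak. Their distances to a site are thus rough, and nothing is read from them. At FBXO34 91 of the 151 bases around the summit were searched, so a nearer site there is not excluded. The PSMD3 half-site begins 37 bp after the start, outside its peak and 359 bp from the summit.

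TPP2 had no half-site although its window holds the summit. Together with the window of LOC107984588 the sequence covered 380 of the 387 bp of its peak and all 151 bases around the summit, and no TGACG or CGTCA was found there. The closest approach to TGACGTCA in the TPP2 window had 2 mismatches. The E-box lies 11 bp from the summit, in a window that also holds 2 CCAAT boxes (6 and 18 bp from the summit, as attgg) and a GC box. An E-box was found in 7.26% of all windows and 8.95% of those with a summit. Of the 138 peaks with the summit in a RefSeq window, 15 had no half-site in such a window. Their median fold was 5.62, against 5.89 for the 66 with half-sites alone and 6.13 for the 57 with a full site, and 3 of the 15 had a fold above that of TPP2.

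For CDC27 and PSMD3 the summit lies outside the window, and 141 of 291 bp and 19 of 237 bp of their peaks could be searched. Neither stretch had a half-site, and the bases at both summits were not searched. The 6 windows held 19 (PSMD3) to 31 (FBXO34) CpG dinucleotides, against a median of 21 over windows of protein-coding genes, 14 over all windows and 27 over those with a summit. Their GC content ran from 56.7% (PSMB2) to 70.0% (FBXW7), against medians of 62.3%, 58.7% and 64.5%. PSMD3 was below the protein-coding median for CpG, and PSMB2, PSMD3 and CDC27 were below it for GC. No window of the 6 had a TATAAA box, which 11.5% of all windows and 3.68% of those with a summit held. A CCAAT box was in 5 (34.6% of all windows and 42.6% of those with a summit), FBXW7 being the exception. The CCAAT boxes of CDC27 and PSMD3 lay outside their peaks.

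**Figure D4:**
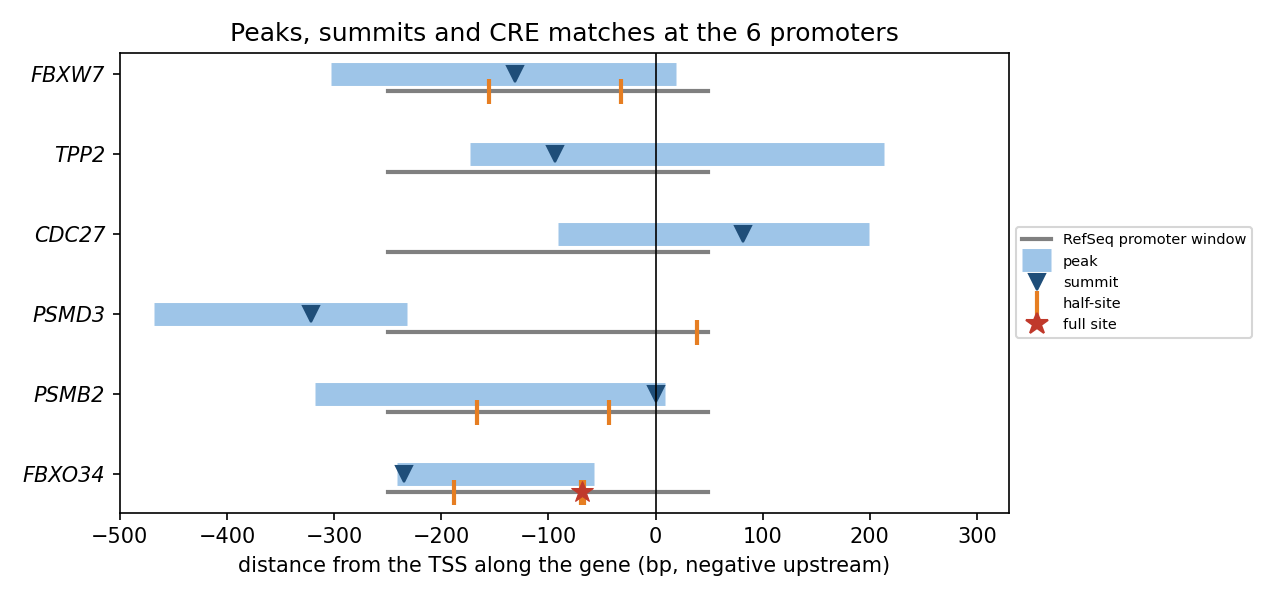
Peak (blue bar), summit (triangle), RefSeq promoter window (grey line) and CRE half-sites (orange ticks) or full site (red star) at the 6 genes, by distance from the TSS in bp along the gene. FBXW7, PSMB2 and FBXO34 have sites under the peak, TPP2 has none, and the PSMD3 and CDC27 summits lie outside the window that could be searched.

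The wider pathway was examined in 9 lists with 252 distinct protein-coding genes. Of these 13 had a promoter peak (5.16%), but 6 of the 13 are the genes described above. Without them it was 7 of 246 (2.85%), beside 1.33% of all protein-coding genes, and 24 of the 246 (9.76%) were paired with a peak within 50 kb, close to the 8.47% of all protein-coding genes. No test was made because the lists were drawn up with results of these data known. With 1 library such counts describe the peak list, not the condition.

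Among 19 APC/C genes, 3 had a promoter peak (15.8%, beside 1.33% of all protein-coding genes): CDC27, chosen for its peak, ANAPC10 and ANAPC15. The share is raised by the choice of CDC27. ANAPC10, a subunit that helps bind the substrate, had 7 fragments and a fold of 6.08, but the summit lies 333 bp downstream of its start and 103 bp from that of ABCE1, a ribosome recycling factor read the other way, which is thus nearer. ANAPC15, a subunit tied to the turnover of the mitotic checkpoint, had 5 fragments and a fold of 4.56, with the summit 30 bp inside the gene. UBE2C, the E2 enzyme of the APC/C, was paired with a peak 20.7 kb away (fold 7.60), whose summit lies 14 bp from the start of WFDC3 and 57 bp from that of DNTTIP1. CDC27 had the highest fold of the 3 with a promoter peak. Within 50 kb 4 of the 19 were paired with a peak, UBE2C included (21.1%, beside 8.47% of all protein-coding genes).

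Of 71 F-box genes, 4 had a promoter peak (5.63%, beside 1.33% of all protein-coding genes). The share is raised by FBXW7 and FBXO34, 2 of the 4, chosen for their peaks. Beside FBXW7 and FBXO34 these were FBXO28, with 11 fragments over a background of 0.949 and a fold of 6.16, and FBXL18, with 7 fragments and a fold of 5.94, whose summit lies 58 bp from the start of LOC221946. Both summits lay within 50 bp of the TSS, at 42 and 13 bp. A further 5 F-box genes were paired with a peak between 1 and 50 kb, namely KDM2A, FBXL15, FBXL19, FBXO36 and ECT2L, with folds from 4.01 to 8.83. Within 50 kb 9 of the 71 had a peak (12.7%, beside 8.47% of all protein-coding genes). The ECT2L peak, the strongest of these, lies 78 bp from the start of CCDC28A, and the FBXL15 peak lies at the start of NFKB2. Of the 31 SCF core, cullin and neddylation genes, 1 had a promoter peak (3.23%, beside the same 1.33%). It was COPS8, a subunit of the COP9 signalosome that removes NEDD8 from cullins. Its peak had 4 fragments, a fold of 3.80 and a −log10 q of 1.48, close to the lowest in the peak list (1.32).

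In each proteasome list 1 gene had a promoter peak, beside 1.33% of all protein-coding genes. PSMB2 was 1 of 19 genes of the 20S core (5.26%) and PSMD3 1 of 19 of the regulatory particle (5.26%). Both were chosen for their peaks and no other gene of their lists had a promoter peak, so these shares follow from the choice. PSME3, which encodes the nuclear PA28 gamma activator, was 1 of 20 assembly and activator genes (5.0%). It had 2 promoter peaks, 277 bp upstream (fold 6.85, 9 fragments) and 132 bp downstream of the TSS (4.76, 6 fragments). Within 50 kb PSMA8, PSMB7, PSMD2 and PSMD4 also had a peak, with folds from 4.01 to 5.20. Counted with PSMB2 and PSMD3, 3 of 19 genes of each of their lists were so paired (15.8%, beside 8.47% of all protein-coding genes). The PSMD2 and PSMD4 peaks lay at the starts of other genes, CAMK2N2 and ZNF687. TPP2, also chosen for its peak, was the single gene with a promoter peak among 23 cytosolic peptidase genes (4.35%). That share, too, follows from the choice. METAP2, a methionine aminopeptidase, was paired with a peak 10.4 kb away (fold 4.01). Counted with TPP2, 2 of the 23 peptidase genes were paired within 50 kb (8.70%, beside 8.47% of all protein-coding genes).

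**Figure D5:**
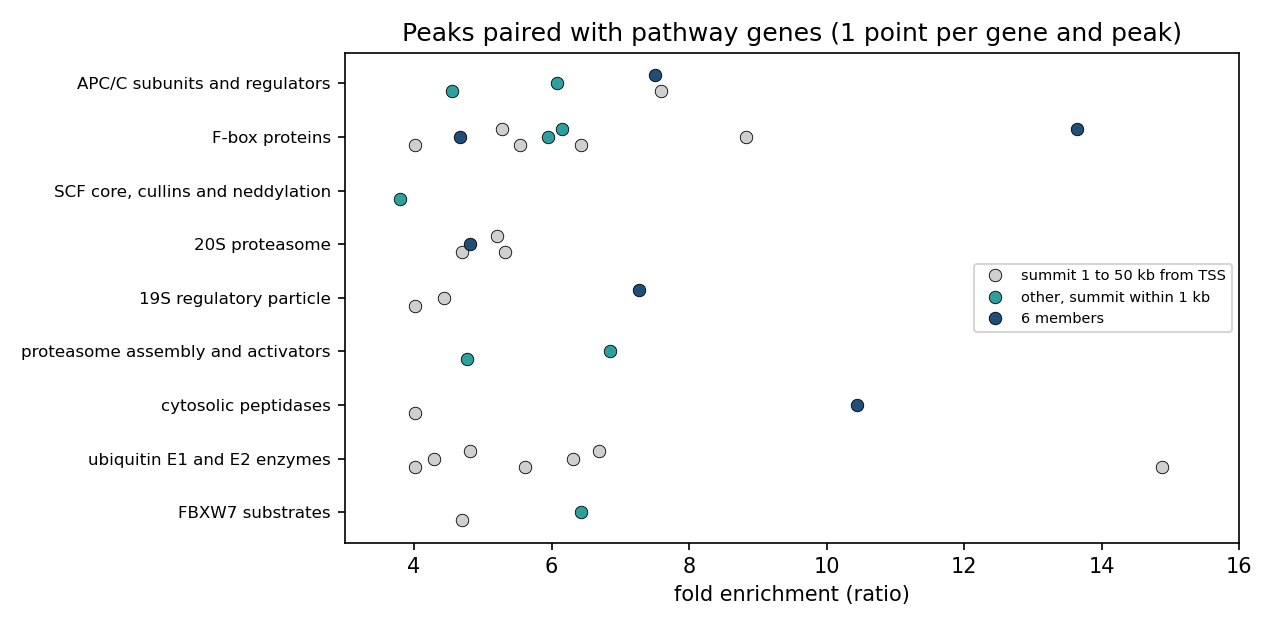
Fold enrichment (ratio) of every peak paired with a gene of the 9 pathway lists, 1 point per gene and peak, with the 6 genes in dark blue, other genes with a summit within 1 kb in teal and pairs between 1 and 50 kb in grey. FBXW7 (13.6) and TPP2 (10.4) have the highest folds among the promoter peaks, and the grey point above 14 is UBB.

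RefSeq windows were found for 12 of the 13 pathway genes with a promoter peak, all but FBXL18. Of the 6 that are not among the genes described first, 4 held a half-site (ANAPC15, COPS8, FBXO28 and PSME3) and none a full site, beside 24.6% and 1.85% of all windows. The summit lay inside the window for ANAPC15, COPS8 and FBXO28, all 3 with a half-site, and outside it for ANAPC10, NFKB2 and PSME3. The COPS8 window belongs to a RefSeq start 448 bp from the authors' TSS. FBXO34 was thus the single pathway gene of the 12 with the palindrome TGACGTCA in its window.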

How the data were processed

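One CREB ChIP library and 1 input library of NGP cells were in the series, and the files analysed are a peak list and a peak-to-TSS table of the ChIP library. The submitters' processing notes name Bowtie2, MACS2 and build hg38, with versions, settings and duplicate handling not given in the sources used here. The peak list deposited by the authors gives each peak a score and, at the summit, a fold enrichment over background, a −log10 p and a −log10 q. The score deposited by the authors equals 10 times the −log10 q, cut to a whole number, in 5285 of 5285 peaks, and all 4780 rows of the table matched the list in position and score. Total reads per library are not given in these files, so depth is known only as fragments at summits.

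Computed here (Python 3.11.15, scipy 1.17.1): summit distances, and fragments from fold = (fragments + 1) / (background + 1) with p as a Poisson tail above the fragments (within 0.001 in −log10 p, or a relative 1e-05 above 100). In 38 peaks more than 1 number fitted and the closest was taken, none of them a peak of the 6 genes. This recovery and the motif search were tested on simulated data. Symbols were matched to RefSeq GRCh38.p14 (19970 protein-coding genes), whose promoter windows were searched on both strands with overlaps allowed, for the CRE half-site TGACG with its longer form TGACGT and the full site TGACGTCA, the E-box CACGTG, the CCAAT box, the GC box GGGCGG, the ETS-type motif CCGGAAG and the TATAAA box. No genome sequence or exon annotation was used here. Genes and lists were chosen with earlier results of these data known. The genes named are the 6, the genes paired with their peaks, the list genes with a promoter peak, the promoter gene nearest in fold to each of the 6, and FOS. List genes with a peak between 1 and 50 kb were named after their values were seen. Alternatives were other distances, q, fold, peak and motif choices. One gene of the pathway lists is not reported here.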

Additional observations from a re-analysis of the deposited data

How the results depend on the processing

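No paired analysis was possible because there is 1 ChIP library and no comparison between groups of samples. All 6 genes kept a promoter peak with a limit of 500 bp or 5 kb, a −log10 q of at least 2, or the peak edge in place of the summit. The number was 4 at 200 bp (without FBXO34 and PSMD3), and 4 at a −log10 q of at least 5 or a fold of at least 5 (without FBXO34 and PSMB2). The pathway count of 13 became 8 at 200 bp and 7 at a −log10 q of at least 5, and was 9 to 16 under the other settings. Half-sites, in 4 of the 6 windows, fell to 1 with the full site and 2 with TGACGT. They were in 3 within 75 bases of the summit, and in 3 inside the peak, a setting chosen after seeing the data. Taking the highest peak within 50 kb changed PSMB2 alone of the 6 (fold 5.32). With 5 fragments at PSMB2 and FBXO34, counting error spans a range wider than the differences among the lower 4 genes.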

Other observations

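UBB, a gene for ubiquitin itself, carried a strong peak that the promoter limit of 1 kb leaves out. The peak lay 1447 bp downstream of its TSS (chr17:16382028-16382525) with a fold of 14.9, resting on 28 fragments (18.6 to 40.5, 95% Poisson limits) where 0.949 were expected. UBB encodes ubiquitin units repeated head to tail with closely similar sequence, so the assignment of reads to a single unit or copy is uncertain. Its fold was above that of FBXW7 (13.6). Of the 34 E1, E2 and ubiquitin genes none had a promoter peak, beside 1.33% of all protein-coding genes. Within 50 kb 6 of them were paired with a peak (17.6%, beside 8.47% of all protein-coding genes). Apart from UBB these were UBE2A, UBE2D1, UBE2J2, UBE2L3 and UBE2Z, with folds from 4.01 to 6.70. The UBE2Z peak (6.70) lies 74 bp from the start of SNF8.

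Of 17 genes whose proteins FBXW7 is known to target, NFKB2, which encodes the p100 precursor of an NF-kappaB subunit, had a promoter peak. Its summit lay 265 bp downstream of the TSS, with 7 fragments and a fold of 6.42, and a weaker peak (4.70) lay 33.4 kb upstream. None of the other 16 was paired with a peak in the authors' table. The 1 gene is 5.88% of the list, beside 1.33% of protein-coding genes with a promoter peak and 8.47% paired within 50 kb. Nothing is read from 1 gene.

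A second full CRE lies near FBXO34 but outside its peak. It is at chr14:55272131-55272138, 23 bp before the downstream RefSeq start at 55272154 and 767 bp past the end of the peak, and no summit lay closer to that start than 968 bp.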
